A study of Homo sapiens with 12 samples.

Results

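The expression of 10 genes for the synthesis, storage, uptake and breakdown of catecholamines was examined in neuroblastoma (NB) cells: TH, DDC, DBH, PNMT, SLC18A1, SLC18A2, SLC6A2, CHGA, CHGB and MAOA. They were chosen by name, and each of them had exactly 1 row among the 58735 gene names in the count tables of both lines. RNA-seq covered 2 human NB cell lines, KELLY and SK-N-AS, treated for 24 h with the DMSO vehicle or with Erastin, which blocks the uptake of cystine in exchange for glutamate. KELLY received 1 µM and SK-N-AS 2 µM Erastin, and each of the 4 groups had 3 samples. KELLY carries amplified MYCN and SK-N-AS does not. Each line is a single established line. Per the study's methods the cells of a line were plated in triplicate wells, so p-values here measure only the spread between such wells. Line and dose cannot be told apart in any contrast of the Erastin response.

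Catecholamines are made from tyrosine, which TH turns into DOPA, DDC into dopamine and DBH into noradrenaline. PNMT, a marker of adrenal chromaffin cells, makes adrenaline from it. SLC18A1 and SLC18A2 (VMAT1 and VMAT2) load the amines into secretory granules, which the chromogranins CHGA and CHGB help to fill, SLC6A2 (the noradrenaline transporter) takes them back up, and MAOA oxidizes them in mitochondria. NB arises from the sympathoadrenal lineage, and its catecholamine metabolites are used in clinical diagnosis.

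The libraries held 24169796 to 29835670 counts. Of 11 markers of the adrenergic (sympathetic neuroblast) state, 10 were higher in KELLY with DMSO and 0 were higher in SK-N-AS, while of 11 mesenchymal NB markers 9 were higher in SK-N-AS and 0 in KELLY (edgeR quasi-likelihood test, Benjamini-Hochberg adjusted p under 0.05). The median log2 fold changes (KELLY minus SK-N-AS) of these lists were 1.80 and -4.96. HAND2, a factor of the sympathetic lineage, was present in both lines. The leukocyte gene PTPRC had 12835 to 16496 counts in the 6 SK-N-AS libraries and 0 in the 6 KELLY libraries, and CD3E and LYZ had 0 counts in all 12. The epithelial genes EPCAM, KRT5 and CDH1 had at most 10 counts in a library. Libraries labelled KELLY DMSO replicate 1 and KELLY Erastin replicate 1 stood apart from the other KELLY libraries. Their abundances followed the GC content of the genes in opposite directions, with a shift over all fitted genes of -0.58 and 0.58 (log2) at 60% GC. They also held 208 and 91 counts of HBB, a hemoglobin gene, against at most 3 in the other KELLY libraries, and SK-N-AS Erastin replicate 1 held 40. Summed over the 8 blood genes checked, KELLY libraries had 0.122 to 15.4 CPM with DMSO and 0.326 to 5.38 CPM with Erastin. Erastin results past a threshold in KELLY are therefore also given without the 2 KELLY libraries numbered 1 and with the GC trend corrected.

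In control cells, 9 of the 10 genes were higher in KELLY than in SK-N-AS, and PNMT had too few counts to enter that fit. The distance between the lines ran from 4.12-fold for DDC to 849-fold for SLC18A2 in mean CPM (counts scaled to a common library size by the TMM method). The same test called 30.9% of the 17089 genes tested higher in KELLY and 30.3% higher in SK-N-AS. The median log2 fold change over the 9 genes was 4.15, against 0.02 over all genes tested. All 9 kept their direction and call when any 1 library was left out, KELLY DMSO replicate 1 included, and when the GC trend was corrected. In such bulk RNA, fewer cells with a gene on and less RNA per cell cannot be told apart.

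Among the enzymes of synthesis, TH, the rate-limiting step, had 6846, 14343 and 11539 counts in the DMSO replicates 1 to 3 of KELLY and 90, 82 and 49 in those of SK-N-AS. The lowest KELLY library was 80.4 times the highest SK-N-AS library in CPM. The log2 fold change was 7.23 ± 0.39 (SE, n = 3 per line, edgeR adjusted p = 8.14e-07). DBH, the granule enzyme that makes noradrenaline, had 15184, 29909 and 27044 counts in KELLY and 161, 119 and 102 in SK-N-AS, a log2 fold change of 7.58 ± 0.34 (SE, n = 3 per line, edgeR adjusted p = 3.49e-07). For both genes KELLY replicate 1 was the lowest KELLY library and the lines were far from overlapping. TH lies at chr11:2163929-2171815 (minus strand) and DBH at chr9:133636363-133659329 (plus strand) in GRCh38.

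DDC, the decarboxylase between them (chr7:50458436-50565405, minus strand), differed least. It had 7335, 9367 and 9437 counts in KELLY and 2241, 2040 and 2086 in SK-N-AS, with a log2 fold change of 2.06 ± 0.14 (SE, n = 3 per line, edgeR adjusted p = 3.76e-06). PNMT had 5, 17 and 11 counts in KELLY and 6, 2 and 2 in SK-N-AS. Its ranges overlapped and the filter on low counts removed it from this comparison. In 6 alternative fits that kept it the log2 fold change was 1.44 to 2.38, and it passed an edgeR adjusted p under 0.05 in 2 of them, without KELLY DMSO replicate 1 (0.00990) and without SK-N-AS DMSO replicate 1 (0.0424). NR3C1, the glucocorticoid receptor that drives PNMT in chromaffin cells, was lower in KELLY (15.5 CPM) than in SK-N-AS, with a log2 fold change of -2.17 ± 0.23 (SE, n = 3 per line, edgeR adjusted p = 5.37e-05).

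The 2 vesicular transporters differed from each other in how far the lines were apart. SLC18A2 had 3336, 2686 and 3377 counts in KELLY with DMSO and 5, 5 and 1 in SK-N-AS, so that its log2 fold change of 9.70 ± 0.32 (SE, n = 3 per line, edgeR adjusted p = 1.08e-07) rested on 11 counts in SK-N-AS. SLC18A1, the form typical of endocrine cells, had 1556, 1542 and 1566 counts in KELLY and 92, 78 and 96 in SK-N-AS, with a log2 fold change of 4.15 ± 0.17 (SE, n = 3 per line, edgeR adjusted p = 2.10e-07). SK-N-AS therefore had more SLC18A1 than SLC18A2 per kilobase of exon, the reverse of KELLY. In the GENCODE 44 annotation 52.3% of the SLC18A2 exon length lies opposite PDZD8, and the strand setting of the counting was not given in the sources used here. PDZD8 had 1620 to 1888 counts in SK-N-AS with DMSO, where SLC18A2 had at most 5.

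SLC6A2 had 2068, 2286 and 2765 counts in KELLY with DMSO and 380, 384 and 326 in SK-N-AS. Its log2 fold change was 2.72 ± 0.16 (SE, n = 3 per line, edgeR adjusted p = 1.32e-06). An unnamed gene on the same strand shares 28.6% of its exon length, so reads there may have been left uncounted. MAOA had 8821, 6242 and 7966 counts in KELLY and 1175, 1210 and 1316 in SK-N-AS, a log2 fold change of 2.65 ± 0.16 (SE, n = 3 per line, edgeR adjusted p = 1.52e-06). Both genes stayed clearly detected in SK-N-AS.

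The 2 chromogranins differed in how far the lines were apart. CHGA had 48039, 80384 and 69890 counts in KELLY with DMSO and 411, 316 and 356 in SK-N-AS, with a log2 fold change of 7.54 ± 0.26 (SE, n = 3 per line, edgeR adjusted p = 1.29e-07). CHGB had 1796, 2962 and 2909 counts in KELLY and 309, 236 and 236 in SK-N-AS, with a log2 fold change of 3.31 ± 0.23 (SE, n = 3 per line, edgeR adjusted p = 3.85e-06). The 10 genes together made up 3694 to 6085.5 CPM in KELLY with DMSO and 172 to 179 CPM in SK-N-AS.

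**Figure D1:**
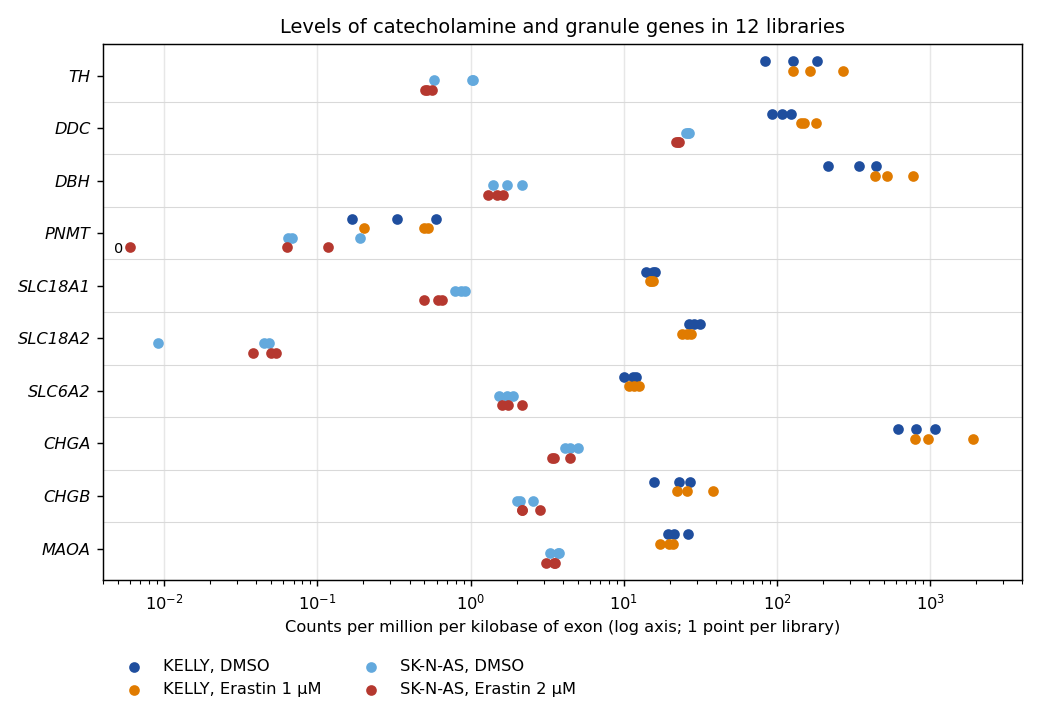
Level of each gene in each of the 12 libraries, in CPM per kilobase of exon on a log axis, with 1 point per library and the group by colour; the PNMT value of 0 in SK-N-AS Erastin replicate 3 is drawn at the left edge. For 9 genes all KELLY points lie to the right of all SK-N-AS points, and the Erastin points of a line lie near its DMSO points. The edgeR test between the lines with DMSO called 30.9% of all genes tested higher in KELLY. The share of all genes without overlap between the lines was not computed.

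Compared per kilobase of exon, CHGA was the highest of these genes in KELLY with DMSO at 836 ± 232 CPM per kb (SD, n = 3), ahead of DBH at 334 ± 114 (SD, n = 3). TH at 131 and DDC at 108 CPM per kb followed with overlapping ranges. SLC18A2 at 28.9, MAOA at 22.4, CHGB at 21.9, SLC18A1 at 15.2 and SLC6A2 at 11.2 CPM per kb came next, and MAOA and CHGB, and CHGB and SLC18A1, overlapped. PNMT was last at 0.364 CPM per kb.

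The order was different in SK-N-AS with DMSO. DDC was highest at 26.2 ± 0.668 CPM per kb (SD, n = 3), well above CHGA at 4.53 and MAOA at 3.61. CHGB at 2.22, DBH at 1.76 and SLC6A2 at 1.72 CPM per kb overlapped as neighbours. TH at 0.882 and SLC18A1 at 0.861 also overlapped, and PNMT at 0.108 and SLC18A2 at 0.0340 CPM per kb were lowest. With the longest transcript in place of the union of exons, CHGB ranked 5, MAOA 6 and SLC18A2 7 in KELLY, and SLC6A2 and DBH exchanged ranks 5 and 6 in SK-N-AS.

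Of the 5 genes with a promoter window on hand, CHGA, SLC18A2 and DBH had matches to the cyclic AMP response element. The letters TGACGTCA and their first 7 letters, TGACGTC, were searched on both strands in the 250 bases before the RefSeq start (build GRCh38.p14), a window that was on hand for DDC, DBH, SLC18A2, CHGA and MAOA. The full element stood 54 bases upstream of CHGA and 48 bases upstream of SLC18A2, and the 7-letter form, which is contained in the full one, 181 bases upstream of DBH. Of 35116 promoter windows of the same length, 1.65% held the full element and 3.12% the shorter form. These shares were not matched for GC content, which was 68.8% for CHGA, 78.8% for SLC18A2 and 55.6% for DBH. A match is a string of letters and was not tested for binding. The windows were chr14:92922900-92923149 (plus strand) for CHGA, chr10:117240864-117241113 (plus strand) for SLC18A2 and chr9:133636113-133636362 (plus strand) for DBH. They are shown 5′ to 3′ with the match in capitals.
CHGA: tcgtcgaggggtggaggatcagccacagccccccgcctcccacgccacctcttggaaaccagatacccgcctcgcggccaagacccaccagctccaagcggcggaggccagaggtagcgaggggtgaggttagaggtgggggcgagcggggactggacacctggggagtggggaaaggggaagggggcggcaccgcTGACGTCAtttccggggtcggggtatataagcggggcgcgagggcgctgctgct
SLC18A2: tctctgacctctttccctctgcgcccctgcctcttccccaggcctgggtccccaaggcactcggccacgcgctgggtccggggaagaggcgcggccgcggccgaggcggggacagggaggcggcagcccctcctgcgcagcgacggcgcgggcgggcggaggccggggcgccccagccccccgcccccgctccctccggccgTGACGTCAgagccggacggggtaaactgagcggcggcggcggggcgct
DBH: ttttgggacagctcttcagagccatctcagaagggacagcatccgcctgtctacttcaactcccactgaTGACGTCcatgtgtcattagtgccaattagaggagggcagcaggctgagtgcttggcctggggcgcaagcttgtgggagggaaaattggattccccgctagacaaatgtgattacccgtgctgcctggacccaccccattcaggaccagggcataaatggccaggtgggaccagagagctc
Both DDC starts and MAOA held neither form.

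The genes around this pathway did not all follow the members. For the tetrahydrobiopterin cofactor that TH needs, 2 of 5 tested genes were higher in KELLY and 2 in SK-N-AS. QDPR, which recycles the cofactor, was higher in KELLY by 1.13 ± 0.13 (log2, SE) and GCH1, which starts its synthesis, had a log2 fold change of -0.92 ± 0.23 (SE). The list's median was 0.31. Of 6 tested genes of other amine uptake and breakdown, 3 were higher in KELLY and 2 in SK-N-AS, around a median of 0.45. MAOB was opposite in direction to MAOA, with a log2 fold change of -3.39 ± 0.41 (SE) and 0.231 CPM in KELLY against 2.46 in SK-N-AS. SLC29A4, a low-affinity amine transporter, was higher in KELLY by 2.33 ± 0.26 (log2, SE). All of these passed an edgeR adjusted p under 0.05 with n = 3 per line.

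Granule genes likewise split. Among 10 tested granule proteins and processing enzymes 6 were higher in KELLY and 3 in SK-N-AS. The median log2 fold change was 1.43. Granins of the chromogranin family went both ways. SCG3 was higher in KELLY with a log2 fold change of 4.31 ± 0.24 (SE), as was PTPRN2, a membrane protein of the granule, at 4.47 ± 0.32 (SE), while SCG2 had 476, 467 and 563 counts in KELLY and 17285, 17941 and 18853 in SK-N-AS, with a log2 fold change of -5.16 ± 0.14 (SE). VGF, a related granule peptide precursor, had 475, 1016 and 891 counts in KELLY and 44110, 35680 and 30238 in SK-N-AS, with a log2 fold change of -5.51 ± 0.32 (SE). The third of the 3, PAM, which amidates peptides, was named after its value was seen and stood at -3.20 ± 0.13 (log2, SE). SK-N-AS thus had low CHGA and CHGB together with abundant SCG2 and VGF.

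Of 15 genes of granule release, 10 were higher in KELLY and 4 in SK-N-AS. The median log2 fold change was 1.56. CPLX2, a complexin that clamps and promotes vesicle fusion, was at 194 CPM in KELLY and 0.306 CPM in SK-N-AS, with a log2 fold change of 9.30 ± 0.37 (SE, n = 3 per line). The calcium sensor SYT7 was higher in KELLY by 5.07 ± 0.33 (log2, SE). The paralogs CADPS and CADPS2, which prime granules for release, were on opposite sides. CADPS had 1396, 979 and 1365 counts in KELLY and 6, 3 and 12 in SK-N-AS, and CADPS2 had 4, 7 and 7 in KELLY and 314, 415 and 395 in SK-N-AS. The log2 fold changes were 7.46 ± 0.35 and -5.93 ± 0.30 (SE, n = 3 per line), and neither gene overlapped between the lines.

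Of 8 granule neuropeptides, 5 were higher in KELLY and 3 in SK-N-AS. SST had 561, 599 and 612 counts in KELLY and 0 in each SK-N-AS library, at least 197-fold higher against a floor of 3 counts per library. CARTPT, at 437, 491 and 505 counts against 0, was at least 159-fold higher. VIP had 60, 29 and 60 counts in KELLY and 18529, 21008 and 26449 in SK-N-AS. TAC1 had 0 counts in KELLY and 72, 81 and 105 in SK-N-AS. GAL and NPY, named after their values were seen, were present in both lines, GAL at 124 CPM in KELLY and 49.5 CPM in SK-N-AS and NPY at 1.63 and 8.34 CPM. Of the 4 cholinergic genes, CHAT and SLC18A3, which make and store acetylcholine, were tested and both were higher in KELLY, CHAT at least 14.3-fold against a floor of 3 counts per library.

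**Figure D2:**
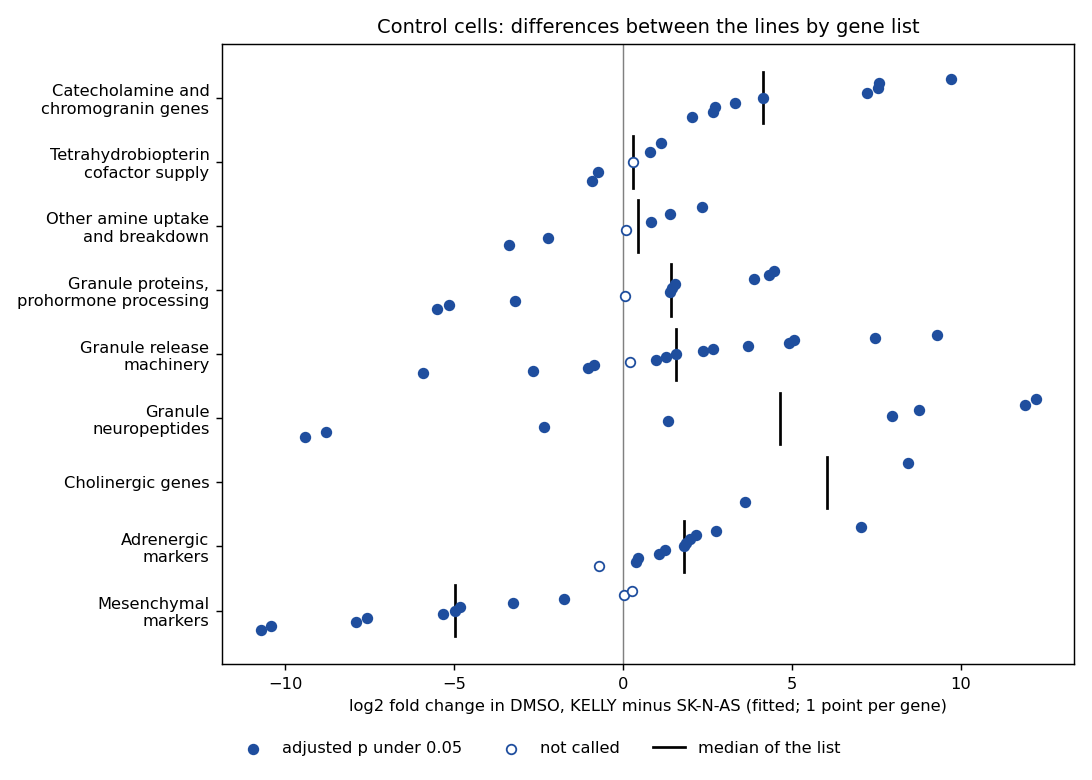
Fitted log2 fold change between the lines with DMSO (KELLY minus SK-N-AS) for the tested genes of 9 lists; filled points passed an edgeR adjusted p under 0.05, open points did not, and the vertical bars are list medians. The 9 catecholamine and chromogranin genes all lie above 0, the other granule and amine lists have points on both sides, and the fitted values of peptides with 0 counts in 1 line depend on the model's prior count.

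Few of these genes passed a threshold with Erastin in KELLY. Of the 10 tested, DBH alone passed the threshold of the methods, which asks for a fold change of 1.5 or more together with an unadjusted p no larger than 0.05, and it was higher. At that threshold 1.29% of the 16258 genes tested were higher and 0.744% lower. With adjusted p-values edgeR called 0 members, with 2 (DBH and DDC) at an unadjusted p under 0.05, and DESeq2 and limma-voom each called 0. Across all genes 0.00615% passed the adjusted test in edgeR. At an unadjusted p under 0.05 in edgeR, 258 of the 16258 genes tested were higher and 172 lower. The median log2 fold change was 0.29 over the 10 genes and 0.01 over all genes tested.

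DBH had 15184, 29909 and 27044 counts in the KELLY DMSO libraries and 51444, 30868 and 39417 in the Erastin libraries. The groups overlapped in CPM, since Erastin replicate 2 lay below DMSO replicate 2, and the extremes were the libraries numbered 1. The log2 fold change was 0.79 ± 0.30 (SE, n = 3 per group, edgeR adjusted p = 0.770). With the GC trend corrected, it was 0.45 ± 0.09 (SE, edgeR adjusted p = 0.180), below the fold limit. Without the libraries numbered 1 it was 0.28 ± 0.14 (SE, n = 2 per group, edgeR adjusted p = 0.979) and with the replicate number as a block it was 0.80 ± 0.38 (SE, edgeR adjusted p = 0.961), no longer past the threshold. The antisense gene DBH-AS1 shares 4.30% of the DBH exon length and passed the same threshold, from 298, 506 and 497 counts in the DMSO libraries to 963, 530 and 709 in the Erastin libraries. Its log2 fold change of 0.80 ± 0.30 (SE, edgeR adjusted p = 0.770) was 0.43 ± 0.10 (SE) with the GC trend corrected and 0.29 ± 0.17 (SE) without the libraries numbered 1, both below the fold limit. With DMSO it was also higher in KELLY than in SK-N-AS, as was IGF2, a neighbour of TH, while DDC-AS1, INS and INS-IGF2, also listed to check overlaps, were too low to be tested and SLC18A2-AS1 was not analysed here.

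DDC had 7335, 9367 and 9437 counts in the KELLY DMSO libraries and 13476, 11345 and 12800 in the Erastin libraries. All 3 Erastin libraries lay above all 3 DMSO libraries, which held for 4.20% of all genes tested (4.34% in the other direction) and for no other member. The log2 fold change of 0.55 ± 0.16 (SE, n = 3 per group, edgeR adjusted p = 0.770) was just under the fold limit. It was 0.49 ± 0.10 (SE, edgeR adjusted p = 0.210) with the GC trend corrected and 0.35 ± 0.12 (SE, n = 2 per group, edgeR adjusted p = 0.979) without the libraries numbered 1.

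TH and CHGA, which are rich in GC (66.1% and 62.2%), had their extreme values in the libraries numbered 1. TH had 20772, 10413 and 14502 counts with Erastin in KELLY against the DMSO counts given above, and CHGA had 140229, 61922 and 81014. Erastin replicate 1 was the highest and DMSO replicate 1 the lowest of the 6 libraries for each gene, and the other libraries overlapped. The log2 fold change of TH was 0.51 ± 0.35 (SE, n = 3 per group, edgeR adjusted p = 0.770), 0.06 ± 0.08 (SE) with the GC trend corrected and -0.08 ± 0.18 (SE) without the libraries numbered 1. For CHGA the corresponding values were 0.55 ± 0.34 (SE, n = 3 per group, edgeR adjusted p = 0.770), 0.12 ± 0.13 (SE) and -0.10 ± 0.15 (SE). The direction for both genes thus turned when those libraries were left out.

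**Figure D3:**
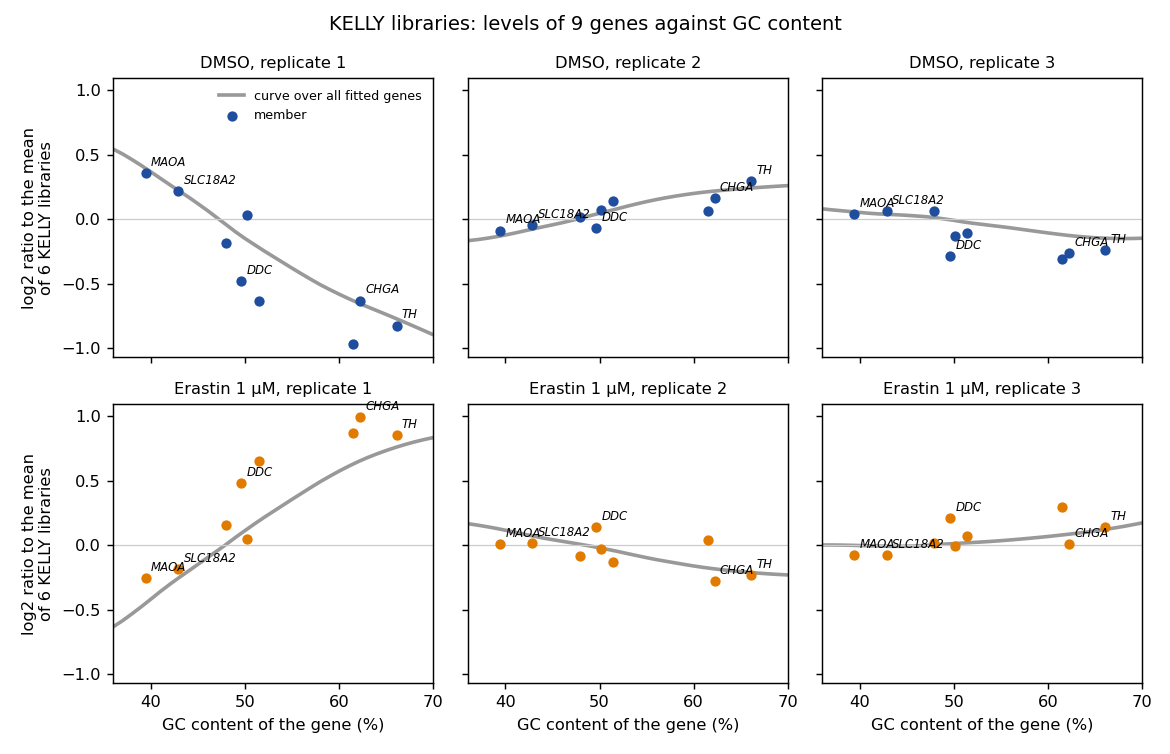
Log2 ratio of 9 genes (PNMT left out) to the mean of the 6 KELLY libraries against the GC content of the gene in percent, with 1 panel per library and the curve over all fitted genes in grey. In the replicate 1 panels the GC-rich genes TH and CHGA and the GC-poor genes MAOA and SLC18A2 lie on opposite sides of 0 and the 2 panels slope in opposite directions, while in the other panels the points lie between -0.31 and 0.30.

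This pattern ran through the members. In KELLY DMSO replicate 1 the log2 ratio to the mean of the line ranged from -0.97 to 0.36 over 9 genes, and 8 of them lay on the same side of 0 as the curve over 12088 genes. In Erastin replicate 1 it ranged from -0.25 to 0.99, and 9 of 9 lay on the side of the curve. The other KELLY libraries also had 6 to 9 of 9 genes on the side of their curve, with ratios from -0.31 to 0.30. The libraries numbered 1 thus stood out by the size of the shift and not by this count. In the SK-N-AS libraries 1 to 7 of 8 genes lay on the side of the curve. The median SD of a gene within a KELLY group fell from 0.312 to 0.112 (log2) after the correction, and 16 of 20 such SDs were smaller. In SK-N-AS the median SD went from 0.159 to 0.148 (log2), and 9 of 16 were smaller. The source of the trend was not tested.

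The other 6 genes had small differences in KELLY. CHGB had 4143, 2566 and 3170 counts with Erastin and a log2 fold change of 0.40 ± 0.27 (SE, n = 3 per group), which was 0.29 ± 0.16 (SE) with the GC trend corrected and -0.0491 without the libraries numbered 1, and MAOA had 5468, 7002 and 7076 counts and -0.22 ± 0.16 (SE). SLC18A2 had 2396, 2929 and 2950 counts and -0.16 ± 0.14 (SE), SLC6A2 had 2482, 2230 and 2575 counts and 0.06 ± 0.15 (SE), and SLC18A1 had 1484, 1506 and 1637 counts and 0.01 ± 0.14 (SE). PNMT had 15, 6 and 16 counts and 0.18 ± 0.59 (SE). The groups overlapped for each of these genes.

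In SK-N-AS, 6 of 8 genes tested had a log2 fold change below 0. TH was the 1 of 8 genes tested that passed the threshold of the methods, and it was lower. At that threshold 1.34% of the 16095 genes tested were higher and 1.33% lower. With adjusted p-values edgeR called 0 members, with 3 (TH, SLC18A1 and DDC) at an unadjusted p under 0.05, DESeq2 and limma-voom each called 0, and 0.659% of all genes passed in edgeR. At an unadjusted p under 0.05 in edgeR, 628 of the 16095 genes tested were higher and 784 lower. The groups did not overlap for TH, SLC18A1 and DDC, each lower with Erastin, as was seen for 7.81% of all genes in that direction and 6.98% in the other. The median log2 fold change was -0.23 over the 8 genes and -0.01 over all genes tested.

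TH had 90, 82 and 49 counts in the SK-N-AS DMSO libraries and 45, 52 and 41 in the Erastin libraries, so that all 3 Erastin libraries were below all 3 DMSO libraries in CPM. The log2 fold change was -0.73 ± 0.25 (SE, n = 3 per group, edgeR adjusted p = 0.344). For SLC18A1 the DMSO libraries had 92, 78 and 96 counts and the Erastin libraries 53, 70 and 65, a log2 fold change of -0.55 ± 0.18 (SE, n = 3 per group, edgeR adjusted p = 0.343) that was under the fold limit. For DDC the DMSO libraries had 2241, 2040 and 2086 counts and the Erastin libraries 1890, 1973 and 1811, a log2 fold change of -0.21 ± 0.08 (SE, n = 3 per group, edgeR adjusted p = 0.443). With the GC trend corrected, DDC stood at -0.22 ± 0.05 (SE, edgeR adjusted p = 0.0173), TH at -0.63 ± 0.21 (SE, edgeR adjusted p = 0.0938) and SLC18A1 at -0.56 ± 0.18 (SE, edgeR adjusted p = 0.0952). Under that correction 6.00% of all genes passed the adjusted test, against 0.659% without it. TH was no longer past the threshold of the methods without DMSO replicate 1 (-0.59) or DMSO replicate 2 (-0.60).

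The remaining genes overlapped between the groups in SK-N-AS. CHGA had 286, 301 and 344 counts with Erastin and a log2 fold change of -0.26 ± 0.14 (SE, n = 3 per group), and DBH had 122, 120 and 92 counts and -0.24 ± 0.19 (SE). MAOA had 1231, 1190 and 1191 counts and -0.08 ± 0.10 (SE), SLC6A2 had 476, 381 and 364 counts and 0.12 ± 0.14 (SE), and CHGB had 263, 282 and 325 counts and 0.12 ± 0.15 (SE). SLC18A2 with 6, 6 and 4 counts and PNMT with 2, 4 and 0 counts were removed by the filter on low counts, and no change was detectable at this depth.

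**Figure D4:**
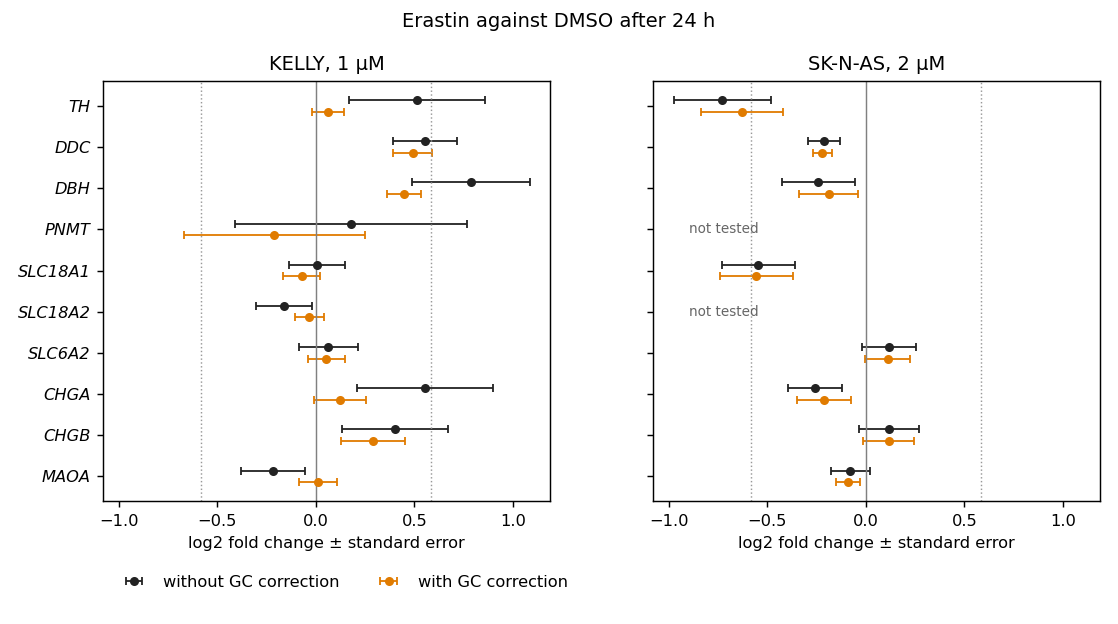
Log2 fold change of Erastin against DMSO for each gene in KELLY (left) and SK-N-AS (right), with standard errors from edgeR, without (black) and with (orange) the GC correction; dotted lines mark a 1.5-fold change. In KELLY TH and CHGA move close to 0 with the correction, DBH falls from 0.79 to 0.45 and DDC goes from 0.55 to 0.49. In SK-N-AS TH, SLC18A1 and DDC lie below 0 in both fits.

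For DDC, all 3 KELLY Erastin libraries were above the DMSO libraries and all 3 SK-N-AS Erastin libraries below them, as was seen for 0.214% of the 18239 genes tested in the interaction. Neither change passed an adjusted p within its line. The effect in KELLY minus that in SK-N-AS was 0.77 ± 0.17 (log2, SE, 12 samples) and did not pass either (edgeR adjusted p = 0.731). Its SE, like the others of the interaction, rests on a spread shared by both lines. The other differences at an unadjusted p under 0.05 were TH at 1.25 ± 0.49, DBH at 1.03 ± 0.39 and SLC18A1 at 0.56 ± 0.19 (log2, SE), each with an edgeR adjusted p of 0.811. With adjusted p-values, 0 of 10 members passed in edgeR (4 at an unadjusted p under 0.05) and 0 in DESeq2 and in limma-voom, while 0.00548% of all genes tested passed in edgeR. At an unadjusted p under 0.05 in edgeR, 451 of the 18239 genes tested had a difference above 0 and 325 below 0. With the GC trend corrected, DDC was at 0.71 ± 0.11 (SE, edgeR adjusted p = 0.0164), which passed. With the replicate block added it was at 0.71 ± 0.12 (SE, edgeR adjusted p = 0.0890), which did not. Of all genes tested, 0.0658% passed with the GC correction and 0.0493% with the block added to it. With the GC correction alone TH at 0.70 ± 0.15 (SE) and DBH at 0.63 ± 0.12 (SE) had edgeR adjusted p-values of 0.167 and 0.115.

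Few genes of the other lists passed the threshold of the methods with Erastin, and none of these passed an adjusted p under 0.05 in edgeR. In KELLY, ALDH2, which oxidizes the aldehydes that MAOA makes, had 1246, 1298 and 1316 counts in the DMSO libraries and 1996, 1794 and 2142 in the Erastin libraries, a log2 fold change of 0.64 ± 0.15 (SE, n = 3 per group, edgeR adjusted p = 0.770). For SST, 561, 599 and 612 counts in the DMSO libraries stood against 374, 339 and 371 in the Erastin libraries, a log2 fold change of -0.69 ± 0.16 (SE, n = 3 per group, edgeR adjusted p = 0.770). Neither gene overlapped between its groups. With the GC trend corrected ALDH2 was at 0.64 ± 0.10 (SE, edgeR adjusted p = 0.0651) and SST at -0.88 ± 0.13 (SE, edgeR adjusted p = 0.0525). Without the libraries numbered 1, SST was at -0.78 ± 0.15 (SE, edgeR adjusted p = 0.194) and ALDH2 at 0.58 ± 0.13 (SE, edgeR adjusted p = 0.403), which was below the fold limit. In SK-N-AS, TAC1 was lower at -0.88 ± 0.23, MAOB at -0.76 ± 0.26, SCG5, a chaperone of prohormone processing, at -0.76 ± 0.29 and the adrenergic factor INSM1 at -0.65 ± 0.20 (log2, SE, n = 3 per group), with edgeR adjusted p-values of 0.159, 0.363, 0.448 and 0.277. These 4 were at 3.27 CPM or less with DMSO. The tetrahydrobiopterin, granule release and cholinergic lists had 0 genes past the threshold in either line.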

How the data were processed

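RNA-seq of 12 samples (KELLY and SK-N-AS, DMSO or Erastin, 3 each) was analysed from the raw read counts per gene that the authors deposited without normalization, 1 table per line. Per the labels and the study's methods, paired-end reads were trimmed with Trimmomatic, aligned to GRCh38 and counted with HTSeq on GENCODE 29. The aligner and the strand setting were not given in the sources used here. Groups came from the sample titles.

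Counts were fitted in R 4.3.3 with edgeR 4.0.16 (filterByExpr defaults, TMM scaling, quasi-likelihood test) over all genes, with Benjamini-Hochberg adjustment. The lines were compared over the 6 DMSO samples, Erastin was compared with DMSO within each line, and the interaction was fitted over all 12. The interaction fit used a spread shared by the 4 groups. The common coefficient of variation between replicates was 0.246 in the KELLY fit, 0.105 in the SK-N-AS fit and 0.191 over all 12. The SEs and p-values of the interaction therefore describe the spread of neither line alone. Overlap between groups was judged in CPM, which was computed on the library sizes of a fit to all 12 samples. DESeq2 1.42.0, the tool of the study, was an alternative. For the GC correction, the log2 ratio of a library to the mean over its fit was smoothed on GC content by loess (span 0.5, degree 2) and the curve was used as an offset. GC content, exon lengths and overlaps came from GENCODE 44. The other 11 lists besides the members were written from general knowledge.

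As alternatives, the fits were repeated with DESeq2, limma-voom (limma 3.58.1), other scalings (library size or RLE), unfiltered counts, a restriction to protein-coding genes, a block on the replicate number, the GC correction alone and together with that block, a joint fit of all 12 samples, the fold limit moved into the model, and 1 library left out at a time. Leaving out both KELLY libraries numbered 1 was chosen after seeing the data.

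The members and lists were chosen with earlier results of these data known. All members were named, and from each list at most 4 called genes per comparison, ordered by fold change. The main fits between the lines and within each line were also run on simulated counts with known changes. These counts held no GC trend, and the interaction and GC-corrected fits were not run on them. Fold limits for genes with 0 counts used a floor of 3 counts per library, which covers counting error only.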

Additional observations from a re-analysis of the deposited data

Results flagged for a closer look

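DDC was higher in 3 of 3 KELLY Erastin samples and lower in 3 of 3 SK-N-AS Erastin samples than in any DMSO sample of the same line, as was seen for 0.214% of all genes tested. Neither change passed an adjusted p in edgeR within its line (0.770 and 0.443), and the difference between the effects, 0.7705 (log2), did not pass in edgeR (adjusted p = 0.731) or DESeq2 (adjusted p = 0.0674). The difference was 0.71 with the GC trend corrected (edgeR adjusted p = 0.0164), 0.71 with the replicate block added to that correction (edgeR adjusted p = 0.0890) and 0.56 without the KELLY libraries numbered 1 (edgeR adjusted p = 0.467). Of all genes tested, 0.0658% passed with the GC trend corrected, against 0.00548% without the correction. Line and dose cannot be told apart in this difference. Taken singly, the separation was seen for 4.20% of genes tested in KELLY (higher) and 7.81% in SK-N-AS (lower). DDC was 1 of 10 members examined for it.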

How the results depend on the processing

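All 144 alternative values of the 9 genes tested between the lines kept their direction and their call. PNMT could be tested in 6 alternatives and passed in 2, each with 1 library left out. In KELLY, the number of members higher at the threshold of the methods (1) went to 0 with the replicate block, the GC correction, the replicate block with the GC correction, a fold limit inside the model, and the KELLY libraries numbered 1 left out, an alternative chosen after seeing the data, and ranged from 0 to 3 when 1 library was left out, 3 being DBH with DDC and TH (without DMSO replicate 2) or with DDC and CHGA (without Erastin replicate 2) and 0 following the loss of DMSO replicate 1, DMSO replicate 3 or Erastin replicate 1. Without KELLY DMSO replicate 2, 734 of all 16859 genes tested were higher at that threshold. The number was 436 of 16691 without KELLY Erastin replicate 2, against 209 of 16258 in the main fit. In SK-N-AS the number of members lower (1) went to 0 in a fit of all 12 samples and with the fold limit inside the model, and ranged from 0 (without DMSO replicate 1) to 2 (without Erastin replicate 3). In that last fit 227 of all 16502 genes tested were lower, against 214 of 16095 in the main SK-N-AS fit. TH passed there in 13 of 17 alternatives, and without DMSO replicate 2 SLC18A1 passed (-0.60) in its place. The number there with an adjusted p under 0.05 in edgeR (0) went to 1 with the GC correction, alone or with the replicate block (DDC in both), and ranged from 0 to 1 (TH, without DMSO replicate 3). Of all genes, 6.00%, 10.2% and 5.20% passed in these 3 fits, against 0.659%. In the interaction the number of members with an adjusted p under 0.05 went from 0 to 1 (DDC) with the GC correction. Of all genes, 0.0658% passed in that fit, against 0.00548% in the main fit. DDC did not pass with the replicate block added (edgeR adjusted p = 0.0890). Causes of these changes were not tested.

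Same-numbered samples did not deviate together in KELLY (r of -0.80, -0.84 and -0.15). In SK-N-AS the r values were of mixed sign (-0.14, 0.22 and 0.44) and do not decide whether the numbers mark pairs. The main fits did not take the numbers as pairs. With the replicate block, all genes higher in KELLY at the threshold went from 209 to 82.

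Signs that turned belonged to changes that were not called. In KELLY they were PNMT at -0.21 with the GC correction and -0.19 with the replicate block added, SLC18A1 at -0.00133 with RLE factors, -0.00123 with DESeq2, -0.0724 with the GC correction and -0.0677 with the block added, and MAOA at 0.0125 and 0.00643 under those corrections. Leaving out 1 library gave -0.16 to 0.70 for PNMT, -0.0518 to 0.0458 for SLC18A1 and -0.00871 to 0.12 for SLC6A2. Leaving out both libraries numbered 1 gave TH -0.0847, PNMT -0.37, SLC6A2 -0.0747, CHGA -0.0964 and CHGB -0.0491. In SK-N-AS, leaving out 1 library gave -0.0157 to 0.22 for SLC6A2 and -0.0235 to 0.23 for CHGB. In the interaction it gave -0.14 to 0.0918 for SLC6A2 and -0.22 to 0.00311 for MAOA. MAOA was 0.11 there with the GC correction and 0.11 with the block added, and without both libraries numbered 1 CHGB was -0.17 and MAOA 0.0654.

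Counts over all genes at the threshold of the methods ranged over the alternatives from 70 to 734 higher and 29 to 344 lower in KELLY, and from 107 to 450 higher and 72 to 401 lower in SK-N-AS. In the interaction, at an adjusted p under 0.05, 1 to 5 genes were higher and 0 to 7 lower, 1 to 12 in all. Depth limited PNMT in every group and SLC18A2 in SK-N-AS, where counts of 0 to 6 per library do not allow a change to be seen.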
